A study of Homo sapiens with 6 samples.

Results

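The genes of fatty acid oxidation and of the peroxisome were followed in 786-O cells with and without overexpression of OGT. The 786-O line was derived from a human clear cell kidney carcinoma, and OGT is the transferase that adds single O-linked sugars, known as O-GlcNAc, to proteins of the nucleus and cytosol. The set holds 36 genes, found by exact match of the gene name among the 62703 genes of the deposited TPM table, each in 1 row. Of these, 18 encode mitochondrial oxidation proteins, 16 encode peroxisomal proteins and 2, PPARA and PPARGC1A, encode regulators of the pathway. The assignment to a compartment follows textbook knowledge, and the products of ECI2 and SCP2 are known in both compartments. The 6 libraries were 3 of control 786-O cells, which the labels call wild type and the titles NC, and 3 of 786-O cells labelled as overexpressing OGT. All came from the same line, grown in RPMI-1640 with serum, with no drug or time course named, and how OGT was introduced, and whether the cells were 1 clone, is not given in the sources used here.

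Mitochondria oxidise long-chain fatty acids after the carnitine shuttle (CPT1 and CPT2) has carried them in as acyl-carnitines. Each turn of the cycle then runs through an acyl-CoA dehydrogenase, an enoyl-CoA hydratase, a hydroxyacyl-CoA dehydrogenase and a thiolase, and the electrons of the first step leave through the electron transfer flavoprotein. Peroxisomes shorten very long and branched fatty acids with their own oxidases and thiolases, and peroxins, the PEX proteins, build the organelle and import its enzymes. Clear cell renal carcinoma is known for stored lipid, and HIF proteins, which are constitutively active in cells without VHL protein such as 786-O, are known to repress CPT1A.

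The sequences upstream of 4 mitochondrial members are shown. Of these 3, ACADVL, ECI1 and ETFB, belong to the genes that fell in every setting run. HADHA was added because it and HADHB start head to head on chromosome 2. Both rose as deposited and lost their calls after median centring and with either trend removed, and a part of the layout in their changes was not tested. The RefSeq start of HADHA (26244632, minus strand) and that of HADHB (26244939, plus strand) lie 306 bases apart, so the stretch upstream of HADHA is also much of the one upstream of HADHB. Each sequence gives the 250 bases before a RefSeq start, GRCh38.p14, written 5′ to 3′ on the gene's strand. Capitals mark GC boxes (GGGCGG) and CCAAT boxes (CCAAT) on either strand.
HADHA upstream, chr2:26244633-26244882, minus strand: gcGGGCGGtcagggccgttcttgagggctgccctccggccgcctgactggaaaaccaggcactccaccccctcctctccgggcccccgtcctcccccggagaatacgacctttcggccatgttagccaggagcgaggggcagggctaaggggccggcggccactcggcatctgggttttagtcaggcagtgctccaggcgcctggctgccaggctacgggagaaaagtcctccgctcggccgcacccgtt
ACADVL upstream, chr17:7216875-7217124, plus strand: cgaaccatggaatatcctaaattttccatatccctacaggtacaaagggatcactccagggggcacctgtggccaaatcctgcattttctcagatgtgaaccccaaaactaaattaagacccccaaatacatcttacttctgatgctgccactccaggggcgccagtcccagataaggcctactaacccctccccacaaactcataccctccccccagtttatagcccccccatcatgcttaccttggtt
ECI1 upstream, chr16:2251588-2251837, minus strand: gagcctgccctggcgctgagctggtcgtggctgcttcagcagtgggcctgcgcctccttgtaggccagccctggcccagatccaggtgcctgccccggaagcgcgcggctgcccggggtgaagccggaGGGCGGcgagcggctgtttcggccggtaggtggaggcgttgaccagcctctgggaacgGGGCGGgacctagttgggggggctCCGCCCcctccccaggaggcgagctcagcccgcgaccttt
ETFB upstream, chr19:51366389-51366638, minus strand: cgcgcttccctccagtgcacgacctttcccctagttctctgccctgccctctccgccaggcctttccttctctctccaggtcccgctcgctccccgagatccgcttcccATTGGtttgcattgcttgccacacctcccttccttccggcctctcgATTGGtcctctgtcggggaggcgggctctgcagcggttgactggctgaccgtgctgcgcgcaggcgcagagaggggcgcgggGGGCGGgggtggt
The stretch of HADHA held 1 GC box, that of ECI1 held 3, and that of ETFB held 1 with 2 CCAAT boxes. The ACADVL stretch held neither. ACADVL and ETFB each have a further RefSeq start that is not printed, and the 300-base window there held a GC box for both and no CCAAT box for either. RefSeq windows of 300 bases (250 before to 50 after a start) were matched by symbol for 30 of the 36 members, 45 windows in all. A GC box was found in 75.6% of these windows, against 45% of all 35116 windows of that length. The share was 72.7% in the 11 windows of members called higher, 83.3% in the 6 called lower and 78.3% in the 23 not called. The windows compared were not matched for expression or GC content. The HIF core motif (ACGTG or GCGTG) was found in 55.6% of member windows and 48.4% of all windows. The nuclear receptor motif AGGTCA was in 0 of 45 member windows and in 13.8% of all windows. These motifs were searched on both strands with overlaps allowed, and a match is a description, not a site.

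Depth is unknown, since TPM keeps no read total. The libraries each listed 18266 to 19499 genes above 0. At 1 TPM or more there were 11885 to 12202 genes in control and 12743 to 12813 in OGT libraries, without overlap. OGT itself lay between 22.57 and 23.62 TPM in the control libraries and between 270.87 and 352.92 TPM in the OGT libraries. EPAS1, which encodes HIF-2α, was 23.72 to 24.81 TPM in control and 62.93 to 64.52 TPM in OGT libraries. Of the cell line and renal markers, the lineage genes PAX8 and PAX2 were at 124.78 to 209 and 8.43 to 10.51 TPM. VIM, KRT8, KRT18 and NNMT lay between 254.54 and 2780.57 TPM, while CA9, on the same list, was at 0.31 to 0.85 TPM and too low to test. Markers of other cell types were low but not all at 0. Summed TPM reached at most 4.77 over 3 endothelial markers, 2.40 over 4 fibroblast markers, 0.28 over 2 hepatocyte markers and 12.23 over 4 blood markers. The blood value was PTPRC, a leukocyte gene, in control replicate 1, and the endothelial one was mostly PECAM1 (4.22 TPM) in the same library. PTPRC was at no more than 0.07 TPM elsewhere. Nothing states that the replicates were separate cultures, so the p-values rest on a spread between samples that may be technical. In bulk RNA, fewer cells expressing a gene and less of its RNA per cell cannot be told apart.

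Among the mitochondrial members 7 rose and 3 fell, and among the peroxisomal members 4 rose and 2 fell. These calls used limma on log2(TPM + 1) with Benjamini-Hochberg adjusted p below 0.05 over 12645 genes, those reaching 1 TPM in 3 or more of the libraries. Of all those genes 39.1% were called higher and 9.70% lower (48.8% in either direction), and the members' 32.4% higher and 14.7% lower (11 and 5 of 34) are to be read beside that. ETFDH, ABCD3 and PEX7 passed the filter only with the help of the OGT libraries, in which they were high, and without these 3 genes 9 members were called higher, 6 of them mitochondrial and 3 peroxisomal. The median log2 change was 0.34 over the 17 tested mitochondrial members, 0.17 over the 16 peroxisomal ones and 0.30 over all tested genes. The groups of 3 libraries did not overlap for 13 tested members that were higher and 5 that were lower, where 46.2% and 12.4% of all tested genes did so. The 13 include ETFDH, ABCD3 and PEX7, to which the same limit of the filter applies. CPT1C and PPARGC1A were not tested and reached at most 0.26 and 0.24 TPM in any library.

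The balance of the calls moved with the scaling of the libraries. Centring the libraries on their medians left 2 members higher and 10 lower, beside 15.3% and 24.2% of all genes (39.6% together). Quantile normalization left 5 higher and 8 lower, beside 20.2% and 17.8% (38.0% together). The median change of all tested genes was -0.085 with centring and 0.019 with quantile normalization. Changes also followed the GC content and length of the transcripts, so a trend on these properties was fitted and taken out of every library as a further setting. With GC and length taken from the longest transcript, 0 members were higher and 3 lower, beside 15.6% and 11.9% (27.5% together). With both taken as the median over a gene's protein-coding transcripts, 3 were higher and 4 lower, beside 16.9% and 13.6% (30.5% together). The 3 members called lower in all 14 alternatives were ACADVL, ECI1 and ETFB. Of the 11 that rose the one called in most was SCP2, in 13 of 14, followed by ABCD3, in 12 of 13. ABCD3 is among the genes that passed the filter only with the help of the OGT libraries.

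**Figure D1:**
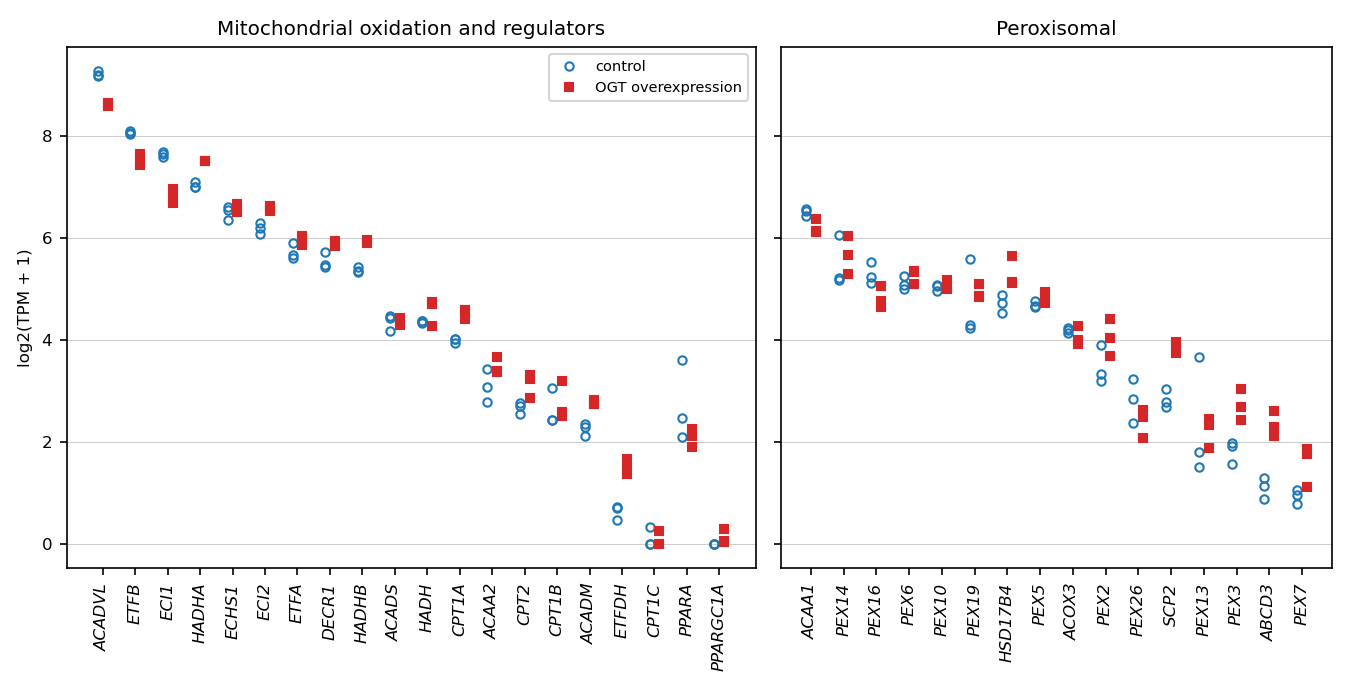
Expression of the 36 members in every library, as log2(TPM + 1) on the vertical axis, with the genes of each panel ordered by control mean and the 2 regulators at the right of the left panel. Open circles are the 3 control libraries and filled squares the 3 OGT libraries. ACADVL, ETFB and ECI1 lead the control libraries and are lower in every OGT library.

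The carnitine shuttle opens the mitochondrial pathway, and CPT1A, its rate-setting outer membrane enzyme and the main CPT1 form outside muscle and brain, was the shuttle member that rose. CPT1A was 14.46, 15.32 and 15.3 TPM in the control libraries and 22.97, 22.44 and 20.35 TPM in the OGT libraries. All 3 OGT libraries lay above all controls, and the gene rose by 0.51 on the log2 scale (SE 0.0883, limma adjusted p = 0.0032). The call was lost after quantile normalization and median centring (adjusted p = 0.0996 and 0.312). Removing the trend gave 0.078 with the longest transcript (adjusted p = 0.466) and 0.36 with the median transcript (adjusted p = 0.037). CPT2, the inner membrane enzyme that returns the acyl group to CoA, was 5.86, 4.88 and 5.52 TPM in control and 8.99, 8.39 and 6.28 TPM in OGT libraries. Its groups did not overlap, but the change of 0.46 (SE 0.166) missed the threshold (adjusted p = 0.0556) and passed it without OGT replicate 3 (adjusted p = 0.0231). CPT1B, the muscle form, was highest in the second library of both groups, at 7.4 TPM in control and 8.17 TPM in OGT, and lay between 4.38 and 5.02 TPM in the others. In the annotation 66.4% of its exonic bases are shared with the readthrough gene CHKB-CPT1B on the same strand, so its level is uncertain. CPT1C, the brain form, was listed at 0 in 4 of the 6 libraries.

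Acyl-CoA dehydrogenases take the first oxidation step and divide the work by chain length. The most abundant member of the whole set, ACADVL, which handles very long chains, was 617.95, 578.91 and 575.21 TPM in control and 385.42, 397.85 and 382.64 TPM in OGT libraries. It was 34.2% lower, with no overlap of the groups (log2 change -0.60, SE 0.0413, limma adjusted p = 0.000115). Its changes were -0.64, -0.99, -0.62 and -0.56 under quantile normalization, median centring and the trend removed with the longest and with the median transcript, each past the threshold. ACADM, for medium chains, moved the other way at a much lower level, with 4.1, 3.9 and 3.34 TPM in control and 5.69, 6.1 and 5.72 TPM in OGT libraries (log2 change 0.52, adjusted p = 0.0227). The groups stood apart, yet the call was lost with the replicate number as a block (adjusted p = 0.0615) and when control replicate 3, OGT replicate 1 or OGT replicate 2 was left out (adjusted p between 0.0601 and 0.0829). It was also lost after quantile normalization and median centring (adjusted p = 0.615 and 0.52), and the change of ACADM turned to -0.078 and -0.22 once the trend was removed, neither past the threshold. ACADS, for short chains, was 19.6 ± 2.13 TPM in control and 19.7 ± 0.962 TPM in OGT cells (SD, n = 3), a change of 0.013 (SE 0.105, adjusted p = 0.927).

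The later steps of long-chain oxidation are carried by the mitochondrial trifunctional protein, whose alpha subunit (HADHA) holds the hydratase and dehydrogenase and whose beta subunit (HADHB) is the thiolase. HADHA was 127.36, 135.64 and 125.97 TPM in control and 181.36, 180.15 and 180.02 TPM in OGT libraries. HADHB was 39.08, 39.69 and 42.38 TPM in control and 61.44, 59.93 and 58.5 TPM in OGT libraries. Every OGT library was above every control for both genes, with log2 changes of 0.48 (SE 0.0455) and 0.56 (SE 0.0612) and limma adjusted p = 0.000321 and 0.000521. Both kept their calls in 11 of 14 alternatives and lost them after median centring and with the trend removed either way (adjusted p from 0.0506 to 0.608). The short-chain enzymes showed smaller differences. HADH, the short-chain hydroxyacyl-CoA dehydrogenase, was 19.66, 19.17 and 19.65 TPM in control and 18.5, 24.96 and 25.98 TPM in OGT libraries, and its groups overlapped through OGT replicate 1, without which the change was called (0.37, adjusted p = 0.0232). ECHS1, the short-chain hydratase, was 90.1 ± 8.17 and 94.0 ± 5.91 TPM and not called (log2 change 0.062). ACAA2, a mitochondrial thiolase, was 7.73 ± 1.99 and 10.2 ± 1.35 TPM, with overlapping groups, and passed the threshold only when control replicate 1 was left out (adjusted p = 0.0408).

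Enzymes for unsaturated fatty acids shift or reduce double bonds so that the cycle can go on, and the pair of enoyl-CoA isomerases in the set moved in opposite directions. ECI1, the mitochondrial isomerase, was 198.35, 192.08 and 204.63 TPM in control and 107.6, 101.8 and 122.83 TPM in OGT libraries. It was 44.2% lower, the largest fall among the members that passed the threshold (log2 change -0.84, SE 0.0741, limma adjusted p = 0.000243), and it stayed between -1.23 and -0.69 under the scaling and trend settings. ECI2, whose product is known in peroxisomes as well as mitochondria, was 66.64, 72.32 and 77.04 TPM in control and 92.37, 91.61 and 97.14 TPM in OGT libraries. It rose by 30.1% with no overlap (log2 change 0.38, adjusted p = 0.00367), but the change was -0.011 after median centring, 0.11 with the longest-transcript trend removed and -0.18 with the median-transcript one. DECR1, the mitochondrial 2,4-dienoyl-CoA reductase, was 52.02, 42.42 and 43.18 TPM in control and 56.28, 60.67 and 57.65 TPM in OGT libraries. All OGT libraries were higher (log2 change 0.34, adjusted p = 0.0184). The DECR1 call was lost when control replicate 2, control replicate 3 or OGT replicate 2 was left out (adjusted p between 0.0555 and 0.0644), and under all the scaling and trend settings (adjusted p between 0.0928 and 0.689).

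Electrons from the dehydrogenases pass to the electron transfer flavoprotein, a dimer of ETFA and ETFB, and on to the membrane enzyme ETFDH. ETFB was 270.37, 263.51 and 262.11 TPM in control and 170.1, 182.77 and 199.56 TPM in OGT libraries. It was 30.6% lower in OGT cells with no overlap (log2 change -0.53, SE 0.0619, limma adjusted p = 0.000682), and it was past the threshold in every alternative. Its longest annotated transcript has 48.7% GC and 3551 bases and its median protein-coding transcript 60.9% and 900 bases, and the change with the trend removed was -0.97 with the first and -0.45 with the second. ETFA was 59.16, 49.6 and 48 TPM in control and 56.85, 63.3 and 64.75 TPM in OGT libraries. Control replicate 1 lay inside the OGT range, the change of 0.24 was not called (adjusted p = 0.079), and it passed the threshold without that library (0.33, adjusted p = 0.0184). ETFDH was low, with 0.65, 0.4 and 0.66 TPM in control and 1.86, 2.18 and 1.61 TPM in OGT libraries (log2 change 0.88, adjusted p = 0.00843). The call was lost under the scaling and trend settings (adjusted p between 0.0652 and 0.265). ETFDH entered the test only through the OGT libraries, in which it is high, and 10.9% of its exonic bases lie opposite exons of PPID, which was 2.46 to 3.36 TPM in control and 7.23 to 8.63 TPM in OGT libraries.

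**Figure D2:**
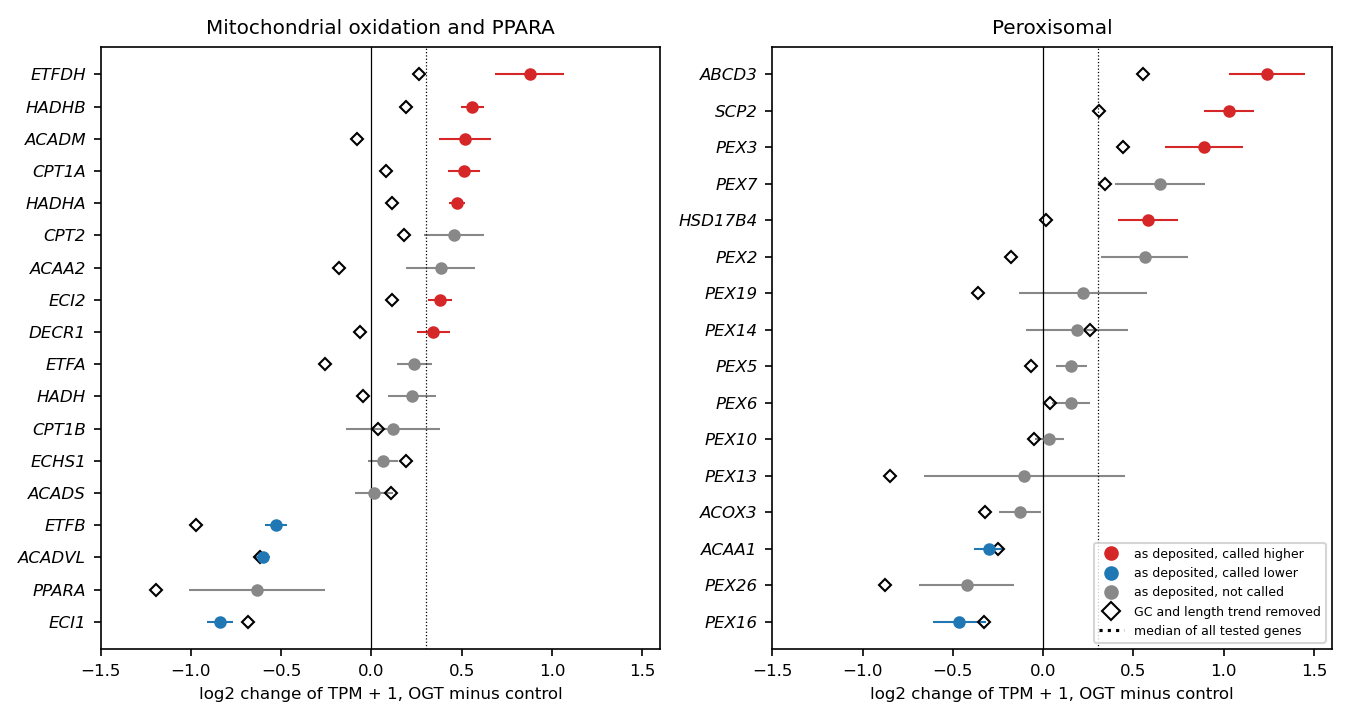
Log2 change of TPM + 1, OGT minus control, on the horizontal axis for the 34 tested members, with filled circles and bars for the change as deposited and its standard error. Open diamonds give the change with the longest-transcript trend removed, and the dotted line is the median of all tested genes, 0.30. ACADVL, ECI1 and ETFB stay below 0 with both values, while the diamonds of the members that rose lie nearer to 0.

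ACADVL, ETFB and ECI1 were the most abundant genes of the set in control cells, and as deposited the summed level of the mitochondrial members fell while their median change lay above 0. The summed TPM of all 18 was 1592.14, 1546.3 and 1546.91 in control and 1295.82, 1328.51 and 1360.33 in OGT libraries, against a median log2 change of 0.34 over the tested members. That median was 0.035 after quantile normalization, -0.047 after median centring, and 0.034 and -0.091 with the longest- and median-transcript trend removed. ACADVL, ECI1 and ETFB together held 67.5 ± 0.687% of that sum in control and 51.5 ± 0.336% in OGT libraries (SD, n = 3). The other 15 summed to 507 ± 3.81 TPM in control and 645 ± 11.4 TPM in OGT libraries. The 16 peroxisomal members summed to 368 ± 15.2 and 384 ± 8.7 TPM, with overlapping groups. The 3 genes were singled out after their values were seen, so these sums are a description.

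**Figure D3:**
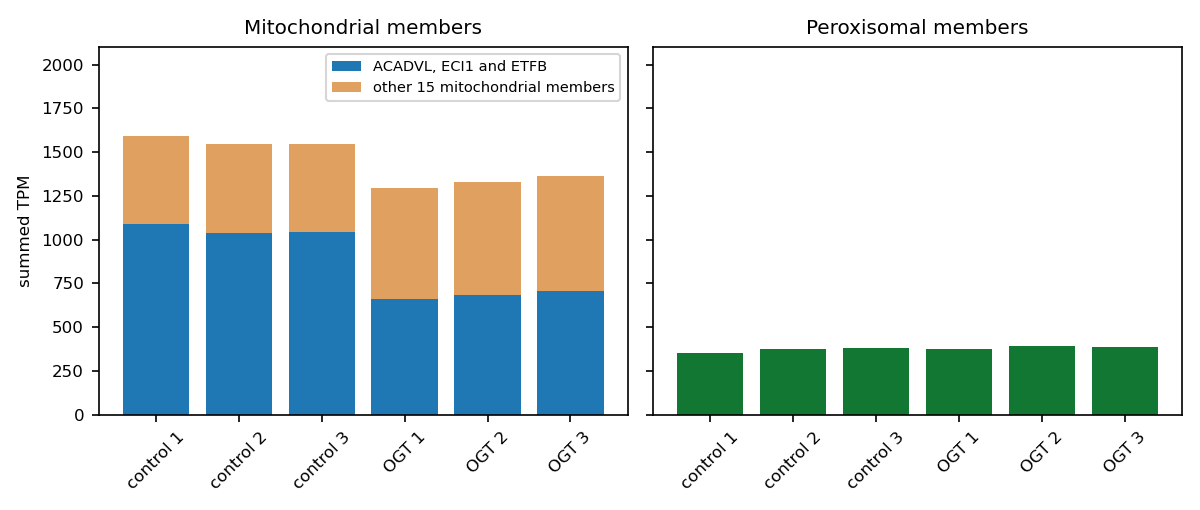
Summed TPM of the mitochondrial members (left) and the peroxisomal members (right) in each of the 6 libraries. Bars start at 0, and the left bars are split into ACADVL, ECI1 and ETFB and the other 15 members. The total of the left bars is lower in all 3 OGT libraries, while the upper segment is taller in them.

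Ratios of 2 genes within a library do not change with a common scaling of that library, and 5 pairs of members were compared this way, chosen after the values were seen. A ratio can still move with a trend on GC content or length. In each pair the first gene had the higher GC content: ACADVL 58.6% and ACADM 41.0%, ECI1 61.4% and ECI2 46.5%, ACAA1 58.1% and SCP2 38.4%, ETFB 48.7% and ETFA 43.8%, HADHA 49.6% and HADHB 46.6%. These values are of the longest transcript. By the median protein-coding transcript ETFB had 60.9% and ETFA 45.2%, and the first gene was again the higher in each pair. The part of GC content in the ratios was not tested. ETFB over ETFA was 4.57, 5.31 and 5.46 in control and 2.99, 2.89 and 3.08 in OGT libraries. ECI1 over ECI2 was 2.98, 2.66 and 2.66 in control and 1.16, 1.11 and 1.26 in OGT libraries. In both pairs all OGT libraries lay below all controls. ACADVL over ACADM was 157 ± 13.1 and 66.6 ± 1.28, and ACAA1 over SCP2 was 14.7 ± 1.85 and 5.37 ± 0.562, also without overlap. HADHA over HADHB was 3.22 ± 0.226 and 3.01 ± 0.0629, and its groups overlapped (exact permutation test on the log2 ratio, two-sided, p = 0.3). The remaining pairs each gave an exact permutation p = 0.1, which is the smallest that 3 against 3 libraries allow, and adjusted p = 0.125 over the 5 pairs.

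**Figure D4:**
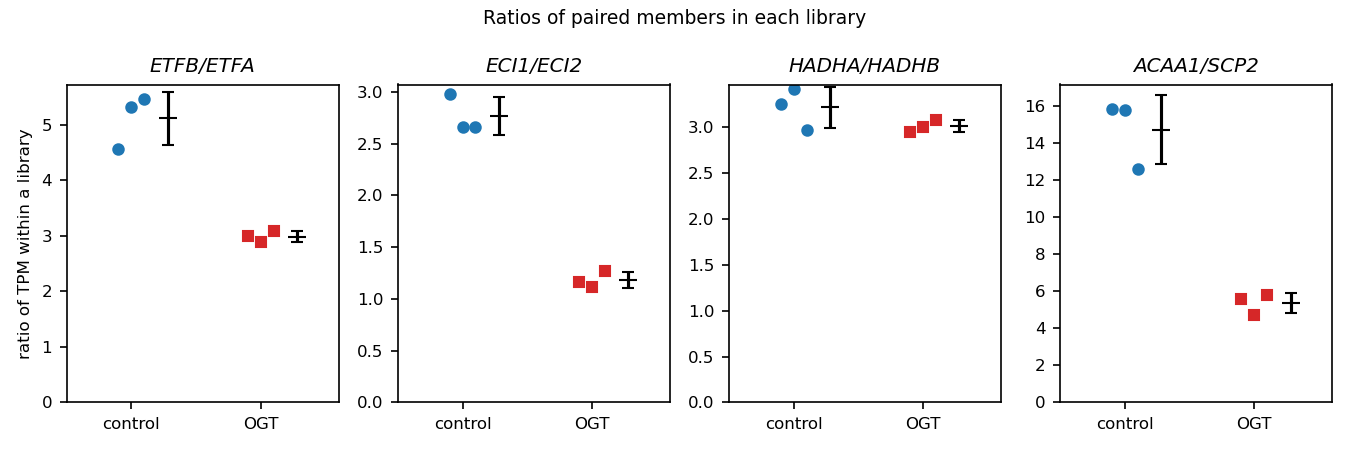
Ratio of TPM between 2 members within each library for ETFB/ETFA, ECI1/ECI2, HADHA/HADHB and ACAA1/SCP2, with each vertical axis starting at 0. Circles are control and squares OGT libraries, and the black bars give mean and SD of 3. HADHA/HADHB overlaps between the groups and the other ratios do not.

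Of the regulators, PPARA, the nuclear receptor that activates oxidation genes of both organelles, was 4.55, 3.28 and 11.18 TPM in control and 3.77, 3.33 and 2.75 TPM in OGT libraries. Control replicate 3 stood far above the other libraries, the groups overlapped, and PPARA was not called (log2 change -0.63, SE 0.378, adjusted p = 0.206). Without that library the change of PPARA was -0.19 (adjusted p = 0.508). PPARGC1A, which encodes the coactivator PGC-1α, was listed at 0, 0 and 0.01 TPM in control and at 0.04, 0.05 and 0.24 TPM in OGT libraries and was too low to test.

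Peroxisomal oxidation uses several of the members that changed. SCP2, which encodes a thiolase for branched chains and a sterol carrier protein, was 5.9, 5.43 and 7.29 TPM in control and 12.36, 14.63 and 13.99 TPM in OGT libraries. All OGT libraries were above all controls (log2 change 1.03, SE 0.141, limma adjusted p = 0.00125), and the change was 0.64, 0.64 and 0.42 after quantile normalization, median centring and removal of the median-transcript trend, all past the threshold. With the longest-transcript trend removed it was 0.31 and not called (adjusted p = 0.0978). ACAA1, the straight-chain thiolase and the most abundant peroxisomal member, was 93.25, 85.52 and 91.64 TPM in control and 68.63, 69.3 and 81.33 TPM in OGT libraries. It was lower in every OGT library, by 18.9% on average (log2 change -0.30, adjusted p = 0.0185), and lost its call without control replicate 1, control replicate 3, OGT replicate 1 or OGT replicate 2 (adjusted p between 0.0511 and 0.0644) and with the longest-transcript trend removed (adjusted p = 0.0884). HSD17B4, the bifunctional hydratase and dehydrogenase, was 22.19, 28.62 and 25.6 TPM in control and 33.97, 33.9 and 49.23 TPM in OGT libraries. The groups did not overlap (log2 change 0.58, adjusted p = 0.0241), OGT replicate 3 was the highest, and the call was lost with no filter (adjusted p = 0.0621) and without control replicate 1 or 3 (adjusted p = 0.0663 and 0.0552). It was also lost for HSD17B4 under the scaling and trend settings (adjusted p between 0.224 and 0.954). ACOX3, an oxidase for branched chains, was 17.3 ± 0.595 and 15.8 ± 2.24 TPM and not called as deposited (log2 change -0.13). It was called lower after quantile normalization and median centring (adjusted p = 0.0232 and 0.0123).

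The transporter and the peroxins followed with few calls. ABCD3, the peroxisomal membrane transporter known as PMP70, was 1.47, 1.2 and 0.85 TPM in control and 5.13, 3.37 and 3.95 TPM in OGT libraries. It had the largest change among the tested members (log2 change 1.24, SE 0.213, limma adjusted p = 0.0032), with no overlap, and 0.86, 0.85 and 0.70 under the settings that kept the call for SCP2, all past the threshold. With the longest-transcript trend removed ABCD3 was at 0.56 (adjusted p = 0.0581). ABCD3 entered the test only with the help of the OGT libraries, in which it is high, so its rank and p-value carry that limit. PEX3, the membrane receptor for PEX19 and its cargo, was 2.94, 2.8 and 2 TPM in control and 5.45, 4.41 and 7.2 TPM in OGT libraries (log2 change 0.89, adjusted p = 0.0131). PEX16, which recruits PEX3, went the other way, with 33.54, 45.24 and 36.53 TPM in control and 24.03, 32.44 and 26.24 TPM in OGT libraries (log2 change -0.46, adjusted p = 0.0353). Both had groups that did not overlap. The PEX3 call was lost under the scaling and trend settings (adjusted p between 0.114 and 0.35). The PEX16 call was lost without control replicate 2, control replicate 3, OGT replicate 1 or OGT replicate 3 (adjusted p between 0.0626 and 0.109), with no filter (adjusted p = 0.086) and with either trend removed (adjusted p = 0.176 and 0.0798).

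The other peroxins were not called as deposited. PEX5, the receptor for most matrix enzymes, was 24.9 ± 1.3 and 27.9 ± 2.15 TPM (log2 change 0.16, SE 0.0873). PEX7, the receptor for the rarer targeting signal carried by ACAA1, was 0.74, 0.95 and 1.1 TPM in control and 2.43, 2.66 and 1.18 TPM in OGT libraries. OGT replicate 3 lay just above the highest control, and PEX7 passed the threshold without it (0.88, adjusted p = 0.0169) but not with it (0.65, adjusted p = 0.0691). PEX7 entered the test only with the help of the OGT libraries. PEX6, an ATPase that recycles the receptors, was 33.6 ± 3.34 and 37.6 ± 3.59 TPM. PEX26, which anchors PEX6, was 6.31 ± 2.14 and 4.37 ± 1.03 TPM, and it was called lower after quantile normalization and median centring (adjusted p = 0.0439 for each). The ring ligase gene PEX10 was 31.7 ± 1.46 and 32.5 ± 2.17 TPM, and it was called lower after quantile normalization and median centring (adjusted p = 0.0489 and 0.0179). In the annotation 39.1% of the exonic bases of PEX10 lie opposite exons of RER1, which was at 120.3 to 170.65 TPM. PEX2, another ring ligase gene, was 14, 8.25 and 9.16 TPM in control and 15.46, 11.98 and 20.28 TPM in OGT libraries, and leaving out control replicate 1 brought it past the threshold (0.77, adjusted p = 0.03).

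In PEX13, PEX19 and PEX14 some libraries stood apart from the others of their group. PEX13, a docking protein, was 11.72 TPM in control replicate 1 but 1.86 and 2.51 TPM in the other controls, against 4.47, 2.7 and 4.08 TPM in OGT libraries. Its change of -0.10 became 0.56 without that library, and neither value was called (adjusted p = 0.894 and 0.109). PEX19, the carrier of membrane proteins, was 47.34 TPM in control replicate 3 but 18.6 and 17.84 TPM in the other controls, against 33.09, 27.94 and 27.61 TPM in OGT libraries. It was not called as deposited (0.22, adjusted p = 0.638) and passed the threshold without that library (0.66, adjusted p = 0.00585). In the annotation 16.3% of the exonic bases of PEX19 are shared with AL139011.2 on the same strand, which was at 11.84 to 17.66 TPM, so its level is uncertain. PEX14, the partner of PEX13 in docking, was 65.68 TPM in control replicate 2 and 64.79 TPM in OGT replicate 2 and between 35.39 and 49.87 TPM in the other libraries. Its change of 0.19 was 0.47 without control replicate 2 and 0.00096 without OGT replicate 2, and was called in neither case (adjusted p = 0.119 and 0.999). The leukocyte gene PTPRC was high in the same library as PEX13, and its part in that value was not tested.

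Within the set, the direction of the change went with GC content. The 11 members that rose had reference transcripts of 35.4% to 50.8% GC (median 44.1%), and the 5 that fell had 48.7% to 61.4% (median 58.6%). Across the 34 tested members, which share the same 6 libraries and are not replicates, the Spearman correlation of GC with the log2 change was -0.67, and -0.61 and -0.66 within the mitochondrial and peroxisomal members. It was -0.47 over 12348 tested genes with a reference transcript. For transcript length the correlation was 0.07 over the members, 0.41 within the mitochondrial and 0.07 within the peroxisomal ones, and 0.39 over all genes. ACADVL, ECI1 and ETFB had GC contents of 58.6%, 61.4% and 48.7% by the longest transcript. By the median protein-coding transcript these were 58.4%, 64.8% and 60.9%, so the place of ETFB depends on the transcript taken. The part of GC content in the other calls was not tested beyond the trend removal given beside them.

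**Figure D5:**
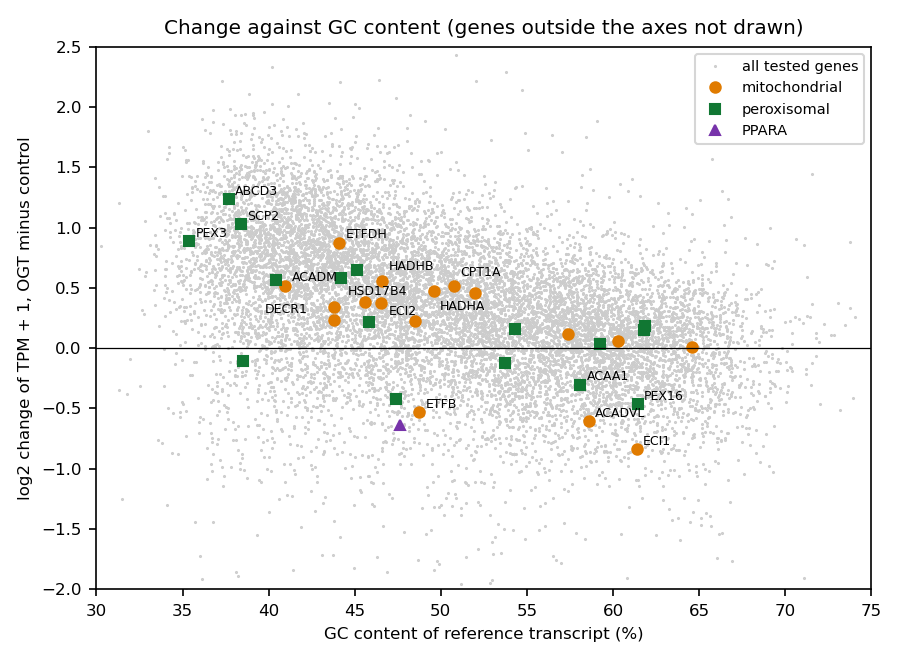
GC content of the reference transcript in percent (horizontal) against the log2 change of TPM + 1, OGT minus control (vertical), for all tested genes in grey and the 34 tested members in colour, with names on the 16 that were called. Members below 51% GC that were called, other than ETFB, are above 0, and the called members above 58% are below 0. ETFB is drawn at the value of its longest transcript, and its median protein-coding transcript has 60.9% GC.

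A wider list of 73 genes of the same pathways, none of them in the set of 36, was drawn up by pathway with earlier results of these data known. Of its 59 tested genes 25 rose and 4 fell, beside 39.1% and 9.70% of all tested genes. Of the 25, 5 passed the filter only with the help of the OGT libraries. The split was 13 and 12 after quantile normalization, 12 and 16 after median centring, and 11 and 9 with the longest-transcript trend removed. Of all genes tested in these settings 20.2% and 17.8%, 15.3% and 24.2%, and 15.6% and 11.9% were called higher and lower. The list's own shares were 22.0% and 20.3%, 20.3% and 27.1%, and 18.6% and 15.3%, near those of all genes. In the wider mitochondrial list 6 of 19 rose and 2 fell, and the split was 2 and 3 after quantile normalization, 2 and 6 after median centring and 2 and 4 with the longest-transcript trend removed. These counts are to be read beside the same shares of all genes. ACAT1, which makes and splits acetoacetyl-CoA, rose from 18.6 ± 1.4 to 36.6 ± 2.02 TPM (log2 change 0.94), and the acyl-CoA synthetase gene ACSL1 rose from 7.8 to 13.6 TPM (0.73). The ketone-using transferase gene OXCT1 (0.67) and the thioesterase gene ACOT2 (0.57) also rose. Of these, ACAT1 was past the threshold under every scaling and trend setting, ACSL1 and OXCT1 lost their calls once either trend was removed, and OXCT1 and ACOT2 lost theirs after quantile normalization and median centring. PCCB, a propionyl-CoA carboxylase subunit gene, fell (-0.31) and stayed past the threshold in every alternative.

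Of 28 tested genes in the wider peroxisomal list 11 rose and 2 fell, which is 39.3% and 7.14% beside 39.1% and 9.70% of all tested genes. The split was 6 and 7 both after quantile normalization and after median centring, and 5 and 4 with the longest-transcript trend removed. Of all genes tested in these settings 20.2% and 17.8%, 15.3% and 24.2%, and 15.6% and 11.9% were called higher and lower. CAT, the catalase that removes the hydrogen peroxide made by peroxisomal oxidases, was 5.47, 7.44 and 7.39 TPM in control and 16.33, 19.24 and 18.56 TPM in OGT libraries (log2 change 1.30, limma adjusted p = 0.00054). AGPS, of ether lipid synthesis, was 2.58, 2.85 and 3.06 TPM in control and 10.24, 8.22 and 10.78 TPM in OGT libraries (1.48, adjusted p = 0.000449). HACL1, of alpha-oxidation, and NUDT19, a CoA hydrolase gene, rose as well (0.97 and 1.14). CAT, AGPS, HACL1 and NUDT19 each stayed past the threshold under the scaling settings and with either trend removed. PXMP2, a peroxisomal membrane channel gene, was 48.66, 52.78 and 47.14 TPM in control and 17.31, 29.28 and 26.86 TPM in OGT libraries (-1.02, adjusted p = 0.00414), and ACOT8, a peroxisomal thioesterase gene, fell (-0.39). PXMP2 was also lower under those settings, and ACOT8 lost its call with the longest-transcript trend removed (adjusted p = 0.263).

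In the wider regulator list 8 of 12 tested genes rose and 0 fell with limma, and 1, ESRRA, was lower at an unadjusted p below 0.05 (-0.30, limma adjusted p = 0.0639). Of all tested genes 39.1% were called higher, and 3 of the 8, SIRT1, TFAM and PDK4, passed the filter only with the help of the OGT libraries. The split was 5 and 2 after quantile normalization, 4 and 3 after median centring and 4 and 1 with the longest-transcript trend removed. Of all genes tested in these settings 20.2% and 17.8%, 15.3% and 24.2%, and 15.6% and 11.9% were called higher and lower. PRKAA1, a catalytic subunit gene of AMP-activated kinase, was 4.22, 4.51 and 4.47 TPM in control and 16.25, 15.48 and 13.22 TPM in OGT libraries (log2 change 1.56). PPARG, which encodes the receptor PPARγ, was 13.35, 11.13 and 15.65 TPM in control and 27.57, 25.81 and 25.57 TPM in OGT libraries (0.94). Both stayed past the threshold under the scaling and trend settings. PPRC1, a PGC-1 related coactivator gene (0.57), lost its call after median centring (adjusted p = 0.141). TFAM, of mitochondrial DNA packaging (1.52), was at adjusted p = 0.0502 with the longest-transcript trend removed.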

How the data were processed

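RNA of 6 samples was sequenced from TruSeq libraries, per the labels' protocols, and the strand setting was not stated. The authors deposited gene-level TPM, a sample to a column, under human Ensembl identifiers. The aligner and counter are not named in the labels used here. Per the submitters' processing notes the builds are GRCm38 and mm10, which are mouse builds. Groups and replicates came from the titles. Values were compared as log2(TPM + 1) in limma 3.58.1 under R 4.3.3 (eBayes with trend and robust, two-sided, Benjamini-Hochberg over all tested genes), as OGT minus control. This scale understates fold changes of low genes. GC content, length and exon overlaps came from GENCODE release 29 (97.7% of tested genes matched), and trends were splines with 4 degrees of freedom. The fit was tested on simulated data. Named genes were the 36 members, up to 4 genes per direction of each wider list by adjusted p, the marker list, OGT and EPAS1. ESRRA, SIRT1, PDK4 and the overlapping genes were named after their values were seen. Some genes of these lists are not reported here. Members and lists were chosen with earlier results of these data known, and the median-transcript trend was added after the data were seen. Replicate numbers are not stated to pair the samples. Over all tested genes, deviations of same-numbered samples correlated at -0.0194, 0.00264 and 0.0166. With so few libraries these values cannot exclude pairing, and a replicate block was run as an alternative.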

Additional observations from a re-analysis of the deposited data

How the results depend on the processing

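ACADVL, ECI1 and ETFB kept direction and call in all 14 alternatives. Of the 16 called members, 16 kept direction and call with a pseudocount of 0.1, 14 with no filter, 12 of the 12 left at a mean of at least 5 TPM, 10 after quantile normalization, 7 after median centring, 3 and 7 with the longest- and median-transcript trend removed, and 15 with a replicate block. The replicate block gave 10 members higher and 5 lower, ended the call of ACADM (adjusted p = 0.0615), and changed no other call among the 16. Only 1 of the 6 samples had its highest correlation with the sample of the same number.

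Counts of all genes were 2558 higher and 2245 lower (quantile), 1937 and 3066 (centring), 1922 higher (longest transcript) and 2082 higher (median transcript). Members called were 5 and 8 (quantile), 2 and 10 (centring), 0 and 3 (longest transcript), and 3 higher (median transcript). Mitochondrial members were 3 higher (quantile), 0 higher and 5 lower (centring), 0 higher (longest) and 1 higher (median transcript). Peroxisomal members were 2 higher and 5 lower (quantile and centring), 0 and 0 (longest), and 2 higher and 1 lower (median transcript). At a mean of at least 5 TPM fewer members were tested, 7 were higher, 2 of them peroxisomal, and with no filter 1 peroxisomal member was lower. Leaving out 1 library gave 3 to 4 members lower and 0 to 1 peroxisomal members lower (3 and 0 without control replicate 3 or OGT replicate 1), and 9 to 13 members higher.

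The mitochondrial median was 0.035 (quantile), -0.047 (centring), 0.034 (longest transcript) and -0.091 (median transcript), and 0.23 to 0.37 with 1 library left out, lowest without control replicate 3, and 0.24 at a mean of at least 5 TPM. The peroxisomal median was -0.092 (quantile), -0.22 (centring), -0.057 (longest transcript) and -0.038 (median transcript), and 0.11 to 0.25 with 1 library left out. Under quantile normalization the sign turned for CPT1B (-0.28), ACADS (-0.30), HADH (-0.086), ECHS1 (-0.065), ACAA2 (-0.023), PEX5 (-0.15), PEX6 (-0.12), PEX10 (-0.24), PEX14 (-0.038) and PEX19 (-0.067). Under median centring the sign turned for CPT1B (-0.27), ACADS (-0.38), HADH (-0.17), ECHS1 (-0.33), ECI2 (-0.011), DECR1 (-0.047), ACAA2 (-0.0060), ETFA (-0.15), PEX5 (-0.23), PEX6 (-0.23), PEX10 (-0.35), PEX14 (-0.20) and PEX19 (-0.17). Under removal of the longest-transcript trend the sign turned for ACADM (-0.078), HADH (-0.045), DECR1 (-0.064), ACAA2 (-0.18), ETFA (-0.26), PEX2 (-0.18), PEX5 (-0.066), PEX10 (-0.049) and PEX19 (-0.36). Under removal of the median-transcript trend the sign turned for CPT1B (-0.054), ACADM (-0.22), HADHA (-0.037), HADH (-0.23), ECI2 (-0.18), DECR1 (-0.19), ACAA2 (-0.091), ETFA (-0.24), HSD17B4 (-0.14), PEX2 (-0.068), PEX10 (-0.025) and PEX19 (-0.050). Of these ACADS, ECHS1 and PEX10 were called lower after centring, and PEX10 after quantile normalization. With 1 library left out the sign turned for CPT1B (-0.094 to 0.33), ACADS (-0.075 to 0.067), ECHS1 (-0.013 to 0.11), PEX10 (-0.018 to 0.070), PEX13 (-0.51 to 0.56) and PEX19 (-0.016 to 0.66), over the ranges given. The causes were not tested, and the precision that depth would set is unknown.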
